A study of Mus musculus with 34 samples.

Results

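A set of 10 genes of the Toll-like receptor (TLR) pathway was followed across the 30 deposited peak lists of a chromatin immunoprecipitation sequencing (ChIP-seq) series in mouse dendritic cells. The set was listed by the genes' places in the pathway and not by a cut on a measured value, and holds the receptors Tlr4 and Tlr2 and the co-receptor Cd14, the adaptors Myd88 and Ticam1, the receptor-proximal IRAK family members Irak2 and Irak3, the ubiquitin ligases Traf6 and Trim25, and the kinase Map3k8. They are 10 of the 21938 protein-coding genes of the annotation on the assembled chromosomes, and all 10 were found. The set was chosen with earlier results of these data known. The study had named Trim25, Irak2 and Myd88 for lower RNA after loss of the protein CTCF. Shares of all genes are therefore given below for scale and are not an independent test of the set.

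Toll-like receptors sense microbial products at the cell surface or in endosomes. TLR4, with its co-receptor CD14, recognizes lipopolysaccharide (LPS) from Gram-negative bacteria and signals through 2 adaptors: MyD88, which recruits IRAK kinases and the ligase TRAF6 to activate NF-κB and MAP kinases, and TRIF, the product of Ticam1, which leads to type I interferon. In dendritic cells this signalling switches on cytokines and costimulatory molecules, and several of its components are themselves targets of NF-κB.

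Cells were bone marrow-derived dendritic cells (BMDCs) of the C57BL/6 strain, grown for 6 days with the growth factor GM-CSF from mice labelled 8 weeks old and selected for CD11c. WT cells carried Rosa26-CreER, a tamoxifen-inducible Cre present in all cell types, and KO cells carried CreER together with Ctcf alleles flanked by loxP sites (CreER;CTCFfl/fl), so that CreER is common to both genotypes; 4-OH tamoxifen, which activates CreER and so deletes Ctcf in KO cells, was added when the cultures were started and not again. WTLPS and KOLPS are the same genotypes after LPS at 100 ng/ml for 3 h. Lists of p65 (the RelA subunit of NF-κB), CTCF, SMC1 (a cohesin subunit), H3K27ac, H3K4me3, H3K4me1 and H3K27me3 covered the 4 conditions, whereas STAT5 lists existed for WT and KO only, from cells restimulated with GM-CSF for 15 min.

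Every antibody and condition was represented by 1 list (n = 1), so no difference between conditions below has a replicate error or a test. The labels do not say whether a list pools several cultures. Intervals cover counting error only, at a level of 95%.

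The lists held 504 to 96475 peaks. Background in the 22 narrow-peak lists, recovered from the deposited fold enrichment and p-value of each peak, was 0.705 to 5.76 fragments per base. Between the p65 lists it ranged only from 0.705 (KO) to 0.855 (WTLPS), and it was higher in the KO STAT5 list (1.70) than in the WT list (1.33). The target of the deletion was checked by the CTCF lists, with 60537 peaks in WT and 54020 in WTLPS against 20151 in KO and 11576 in KOLPS. Of 10 dendritic cell markers all 10 had an H3K4me3 promoter peak in all 4 conditions, as had 5 of 5 macrophage and monocyte markers, so that these lists do not separate the 2 cell types. Cd3e, Cd3g, Cd4, Cd79a, Elane, Mpo, Ltf, Cpa3 and Fcer1a, which mark T cells, B cells, granulocyte precursors and mast cells, had none in any condition. Lck, Pax5, Klf1 and Kit, on the same marker lists or on that of erythroid cells, did have one in all 4.

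A promoter was taken as 2.5 kb on either side of the transcription start site (TSS). All 10 genes had H3K4me3, H3K27ac and H3K4me1 peaks at the promoter in every condition. H3K4me3, which marks active promoters, was called at 10 of 10 promoters in each condition, where 56.7% of all protein-coding promoters had a peak in WT and 57% in WTLPS, and 57.2% in KO and 56.2% in KOLPS. H3K27ac, found at active promoters and enhancers, was likewise called at 10 of 10, against 44.1%, 41.3%, 44.5% and 40.8% of all promoters in the same order. H3K4me1, which flanks promoters and marks enhancers, was at 10 of 10 as well, against 57.1%, 57.3%, 56.8% and 46.5%. The Polycomb mark H3K27me3 was called at the Traf6 promoter alone, in WT, WTLPS and KO, while 27.1%, 20.8%, 27.6% and 11.8% of all promoters carried it. That peak covered 1197, 903 and 244 bases of the Traf6 promoter in WT, WTLPS and KO. Calls do not give peak height. The highest H3K4me3 promoter fold was greater in KO than in WT at 3 of the 10 genes (median ratio 0.909, all genes 0.934). It was greater in KOLPS than in WTLPS at 0 of 10 (0.667, all genes 0.698). Irak2 had the lowest ratios: 49.3-fold in WT and 25.9-fold in KO (0.525), and 46.9-fold in WTLPS and 17.9-fold in KOLPS (0.381). Both lay below the 10th percentile of all genes, 0.730 and 0.547. At Trim25 they were 0.706 and 0.862. Because every member had H3K4me3, shares are also given below among the 12952 protein-coding genes with an H3K4me3 promoter peak in any condition, called active genes.

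**Figure D1:**
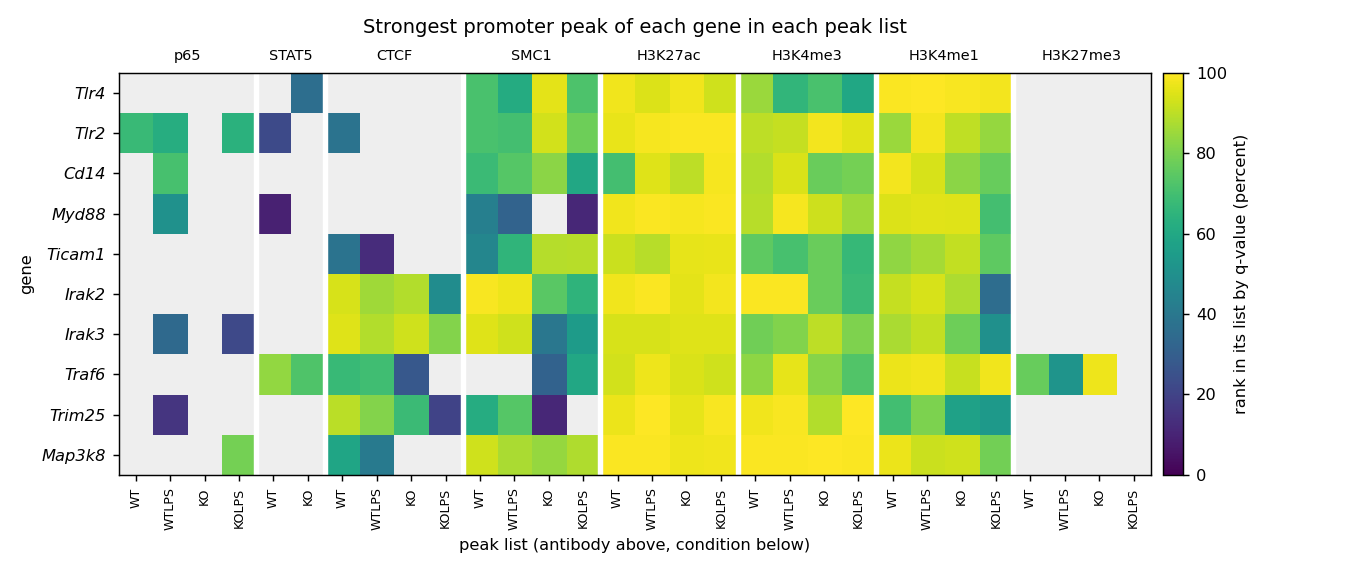
Strongest promoter peak of each gene (rows) in each of the 30 lists (columns, grouped by antibody); colour gives the share of the list's peaks with an equal or lower significance, and grey means that no peak was called. The H3K27ac, H3K4me3 and H3K4me1 blocks are filled for all 10 genes, p65 is scattered, and Traf6 alone has H3K27me3.

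The transcription factor p65 was called at 1 of the 10 promoters in WT (Tlr2), 5 in WTLPS (Tlr2, Cd14, Myd88, Irak3 and Trim25), 0 in KO and 3 in KOLPS (Tlr2, Irak3 and Map3k8). A p65 promoter peak was rare genome-wide, at 0.474% of protein-coding genes in WT and 2.86% in WTLPS, and 0.342% in KO and 1.86% in KOLPS, and at 0.772%, 4.51%, 0.548% and 3.10% of active genes. Cd14, Myd88, Irak3 and Trim25 had a p65 promoter peak in WTLPS and not in WT, a pattern seen at 2.42% of all protein-coding genes. Cd14, Myd88 and Trim25 had one in WTLPS and not in KOLPS, against 1.97% of all genes. Only Map3k8 among the members had the opposite pattern, seen at 0.975% of all genes. The count of 5 in WTLPS against 3 in KOLPS became 3 against 3 with promoters of 1 kb on either side and 1 against 2 at −log10 q of at least 10.

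Within 100 kb of the TSS, 5 of the 10 genes had a p65 peak in WT and 9 in WTLPS, and 2 in KO and 6 in KOLPS. The corresponding shares of all protein-coding genes were 8.65%, 33.1%, 5.9% and 17.9%. The summed number of p65 peaks in these windows was 7 in WT and 26 in WTLPS, and 2 in KO and 7 in KOLPS. Per gene this was 2.6 peaks in WTLPS, against 0.660 over all protein-coding genes and 0.835 over active genes. LPS multiplied the count by 3.71 in WT (exact binomial interval 1.57 to 10.1), where the factor over all protein-coding genes was 6.23. The ratio of KOLPS to WTLPS was 0.269 (0.0987 to 0.637), against 0.395 over all protein-coding genes. At −log10 q of at least 10 the intervals of both ratios included 1. These windows also hold the start sites of other protein-coding genes, from 0 for Tlr4 to 14 for Cd14, so a peak within them is not assigned to a target.

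**Figure D2:**
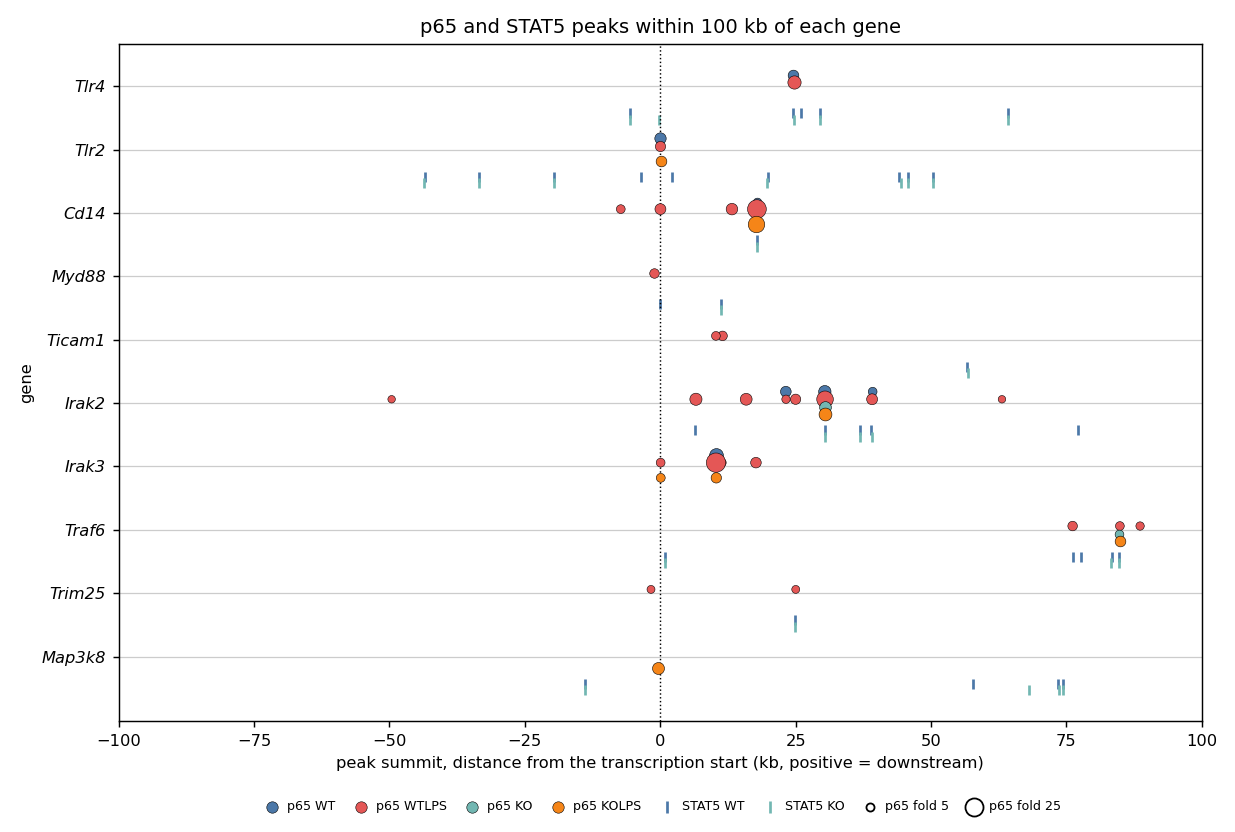
Peak summits within 100 kb of each gene, by distance from its TSS in the direction of transcription (kb). Circles are p65 peaks with area proportional to fold enrichment, 1 lane and colour per condition, and ticks below are STAT5 peaks in WT and KO; p65 circles in WTLPS are the most numerous (26 of 42), and Tlr2 has the most STAT5 ticks.

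Among the receptors, Tlr4 (ENSMUSG00000039005, mm10 chromosome 4, 66827584 to 66930284, plus strand) stood alone in its window, with no other protein-coding start within 100 kb. It had no p65 promoter peak, but an intronic site 24.6 kb downstream of the TSS carried p65 at 8.76-fold in WT and 13.5-fold in WTLPS and was not called in KO or KOLPS. The pileup at its summit was 14 fragments in WT (exact Poisson interval 7.65 to 23.5) and 24 in WTLPS (15.4 to 35.7), intervals that overlap. STAT5, a transcription factor activated by GM-CSF, was called at the same site at 31.4-fold in WT and 25.1-fold in KO. SMC1 was enriched there 8.28-fold in WT, 6.65-fold in WTLPS and 4.58-fold in KO and had no peak in KOLPS. The strongest STAT5 peak near any member lay 5.59 kb upstream of Tlr4, outside any gene, at 49.0-fold in WT and 35.1-fold in KO. Its pileup was 113 fragments in WT and 94 in KO. The sequences at the summits of these 2 sites are shown because only the upstream one held a STAT5 motif. Each gives the summit and 50 bases on either side, on the plus strand of GRCm38, with letters that match a motif in capitals (kB motif GGGNNNTTCC, STAT5 motif TTCNNNGAA, either strand, N any base).

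Tlr4 upstream STAT5 site, chr4:66821948-66822048: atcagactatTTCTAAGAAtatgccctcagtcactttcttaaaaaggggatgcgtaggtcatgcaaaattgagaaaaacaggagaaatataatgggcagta
Tlr4 intronic p65 site, chr4:66852158-66852258: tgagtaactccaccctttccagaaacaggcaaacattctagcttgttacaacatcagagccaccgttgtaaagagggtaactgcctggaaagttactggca

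In all, Tlr4 had 5 STAT5 peaks within 100 kb in WT and 5 in KO. One of the KO peaks, 5.92-fold, lay at −299 bases from the TSS and was not called in WT, a gain seen at 0.62% of all protein-coding promoters. H3K27ac at the Tlr4 promoter was lower with LPS than without, at 14.3-fold in WT, 10.9-fold in WTLPS, 16.0-fold in KO and 9.44-fold in KOLPS. The pileup intervals of WT (20.2 to 42.8) and WTLPS (14.6 to 34.5) overlapped, as did those of KO (17.8 to 39.3) and KOLPS (9.15 to 26). The KOLPS value is that of another peak, with its summit at −300 bases from the TSS. In the other conditions the summit lay 342 to 746 bases downstream.

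Tlr2 (ENSMUSG00000027995, chromosome 3, 83836272 to 83841767, minus strand), the receptor for bacterial lipoproteins, was the only member with a p65 promoter peak before LPS. The peak lay on the TSS at 9.92-fold in WT, 8.08-fold in WTLPS and 8.81-fold in KOLPS. Its pileup was 16 fragments in WT (9.15 to 26), 14 in WTLPS (7.65 to 23.5) and 15 in KOLPS (8.40 to 24.7), and no peak was called in KO, where the smallest pileup of any peak was 7. The values in WT, WTLPS and KOLPS thus lay within counting error of each other. A kB motif was centred 5 bases from the WT summit and 14 bases from the WTLPS summit, and matched on the minus strand. It is given with 10 bases on each side, the motif in capitals.

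Tlr2 promoter kB motif, chr3:83841762-83841791: gctccgtgtgGGAATTCCCCaggtgtccta

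Tlr2 also had the most STAT5 peaks of the members, 9 in WT and 7 in KO within 100 kb. The strongest of them, 19.8 kb downstream and at 21.9-fold in WT and 16.6-fold in KO, lay in an intron of Gm7115. The WT peak 2.096 kb downstream of the TSS (5.58-fold) was not called in KO. At the Tlr2 promoter H3K27ac was 12.4-fold in WT, 16.8-fold in WTLPS, 22.3-fold in KO and 19.99-fold in KOLPS.

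Cd14 (ENSMUSG00000051439, chromosome 18, 36725067 to 36726798, minus strand), which hands LPS to TLR4, had 1, 4, 0 and 1 p65 peaks within 100 kb in WT, WTLPS, KO and KOLPS. Its promoter peak, 31 bases downstream of the TSS, was called in WTLPS alone at 9.16-fold with 16 fragments. A site 17.8 kb downstream, outside any gene, was the second strongest p65 site near the members. There the pileup was 9 fragments in WT (4.12 to 17.1), 49 in WTLPS (36.3 to 64.8) and 37 in KOLPS (26.1 to 51.0). The WTLPS and KOLPS intervals overlapped and both lay above the WT interval, and no peak was called in KO. STAT5 was called at this site at 8.59-fold in WT and 4.44-fold in KO. SMC1 was 13.7-fold in WT, 19.2-fold in WTLPS, 12.6-fold in KO and 11.1-fold in KOLPS at the same place. Cd14 showed the largest ratio of H3K27ac with LPS at the promoter of the 10 genes in either genotype, from 5.52-fold in WT to 11.4-fold in WTLPS and from 9.72-fold in KO to 15.0-fold in KOLPS. The pileups were 11 (5.49 to 19.7), 24 (15.4 to 35.7), 16 (9.15 to 26) and 26 fragments (17 to 38.1) in the order WT, WTLPS, KO and KOLPS, and the intervals overlapped within each genotype. At the p65 promoter site itself H3K27ac was 5.52-fold in WT and 11.4-fold in WTLPS, but 6.29-fold in KO and 7.77-fold in KOLPS. The higher KO and KOLPS values are thus those of other peaks within the promoter.

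The 2 adaptor genes had few p65 peaks. Myd88 (ENSMUSG00000032508, chromosome 9, 119335934 to 119341411, minus strand) had a single one, in WTLPS, 1.20 kb upstream of the start of its longest transcript at 7.01-fold. That summit is 209 bases downstream of another annotated Myd88 start and also in the promoter of the neighbouring gene Acaa1a. STAT5 was called at −72 bases from the start of the longest transcript in WT (4.72-fold, 10 fragments) and not in KO. The other Myd88 start lies at −1.41 kb, so this summit is inside the gene when counted from it. The summit window held a STAT5 motif, shown with 10 bases on each side.

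Myd88 promoter STAT5 motif, chr9:119340046-119340074: ttctttcgctTTCCGAGAAgctccgccct

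The second Myd88 STAT5 peak, 11.3 kb downstream in an intron of Slc22a14, was present in both genotypes at 20.2-fold in WT and 14.1-fold in KO. H3K27ac at the Myd88 promoter was 14.3-fold in WT, 23.2-fold in WTLPS, 17.7-fold in KO and 17.8-fold in KOLPS. The pileup was 30 fragments in WT (20.2 to 42.8) and 50 in WTLPS (37.1 to 65.9), with overlapping intervals, and was 30 in KO and 31 in KOLPS.

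Ticam1 (ENSMUSG00000047123, chromosome 17, 56269319 to 56276786, minus strand) had no p65 promoter peak in any condition. Its 2 p65 peaks, 10.3 and 11.5 kb downstream and nearest to the coding start of Fem1a, were called in WTLPS alone at 5.93-fold and 7.01-fold. H3K27ac was enriched at both sites in every condition, between 14.7-fold and 20.1-fold. The stronger of the 2 held a STAT5 motif and no kB motif within 50 bases of the summit, although no STAT5 peak was called there.

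Ticam1 downstream p65 site, chr17:56265232-56265332: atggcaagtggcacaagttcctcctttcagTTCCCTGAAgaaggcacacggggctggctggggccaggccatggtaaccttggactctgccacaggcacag

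The only STAT5 peak within 100 kb of Ticam1, 56.8 kb downstream, was 6.44-fold in WT and 9.61-fold in KO. Its pileup was 14 fragments in WT and 25 in KO.

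Irak2 (ENSMUSG00000060477, chromosome 6, 113638467 to 113695026, plus strand), an IRAK family member that sustains MyD88 signalling, had the most p65 peaks of the 10 genes: 3 in WT and 8 in WTLPS, and 1 in KO and 1 in KOLPS. None was at the start of its longest transcript. The site 30.4 kb downstream was the only one near any member that was called in all 4 conditions. Its pileup was 19 fragments in WT (11.4 to 29.7) and 38 in WTLPS (26.9 to 52.2), and 17 in KO (9.90 to 27.2) and 22 in KOLPS (13.8 to 33.3). Neighbouring values in this order of levels overlapped, and the WTLPS and KO intervals overlapped by less than 1 fragment. The site falls on the start of a short non-coding transcript of Irak2 at position 113668850, so that Irak2 counts as having a p65 promoter peak in all 4 conditions when the starts of all transcripts are used. STAT5 was called there at 6.87-fold in WT and 7.77-fold in KO. Its kB motif is shown with 10 bases on each side, beside the STAT5 motif of the site 6.49 kb downstream, where p65 was called in WTLPS alone (11.3-fold) and STAT5 in WT alone (6.44-fold).

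Irak2 internal kB motif, chr6:113668850-113668879: ctcagccctgGGAAAGCCCCagatttcagg
Irak2 intronic STAT5 motif, chr6:113644924-113644952: gaaactgaaaTTCACAGAAgctcaaagct

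The p65 sites of Irak2 in WTLPS 15.9, 25 and 39.1 kb downstream were at 10.8-fold, 8.08-fold and 9.16-fold and were not called in KO or KOLPS. SMC1 remained called in KO and KOLPS at the sites 6.59, 15.9, 23.2, 25, 30.4 and 39.1 kb downstream of the Irak2 TSS. At the site 6.59 kb downstream H3K27ac was 7.82-fold in WT, 20.5-fold in WTLPS, 8.58-fold in KO and 17.8-fold in KOLPS, higher with LPS in both genotypes, although p65 was called in WTLPS alone.

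Irak3 (ENSMUSG00000020227, chromosome 10, 120141648 to 120202130, minus strand) encodes IRAK-M, which restrains TLR signalling. An intronic site 10.3 kb downstream of its TSS was the strongest p65 site near the members. The pileup was 24 fragments in WT (15.4 to 35.7), 52 in WTLPS (38.8 to 68.2) and 14 in KOLPS (7.65 to 23.5), and no peak was called in KO. The WTLPS interval lay above those of both WT and KOLPS, but these are raw fragment numbers at unequal depth. Background was 0.713 fragments per base in WT, 0.855 in WTLPS and 0.817 in KOLPS. Fold enrichment was 14.6, 28.6 and 8.26 in the same order, and SMC1 was called there in WTLPS alone (5.32-fold). The strongest p65 sequence among the members held neither motif within 50 bases of its summit.

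Irak3 intronic p65 site, chr10:120191323-120191423: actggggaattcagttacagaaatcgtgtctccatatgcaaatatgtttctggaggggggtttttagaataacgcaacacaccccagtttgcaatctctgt

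At the Irak3 promoter, by contrast, p65 was 5.93-fold in WTLPS and 6.05-fold in KOLPS, with 10 fragments in each. Irak3 was the only member with no STAT5 peak within 100 kb in either list, where 46.7% of protein-coding genes had one in WT and 41.4% in KO.

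Traf6 (ENSMUSG00000027164, chromosome 2, 101678429 to 101701669, plus strand) links IRAK kinases to NF-κB through ubiquitin chains. Its p65 peaks were all far downstream, 76.1 to 88.6 kb from the TSS in introns of Prr5l: 0 in WT and 3 in WTLPS, and 1 in KO and 1 in KOLPS. The site at 84.9 kb had 10 fragments in WTLPS (4.80 to 18.4), 9 in KO (4.12 to 17.1) and 15 in KOLPS (8.40 to 24.7), and no peak in WT. These intervals overlapped throughout. Traf6 was the only member with a STAT5 promoter peak in both genotypes, 0.935 kb downstream of the TSS, at 15.0-fold with 34 fragments in WT and 9.98-fold with 26 fragments in KO. Neither motif matched within 50 bases of this summit.

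Traf6 promoter STAT5 site, chr2:101679325-101679425: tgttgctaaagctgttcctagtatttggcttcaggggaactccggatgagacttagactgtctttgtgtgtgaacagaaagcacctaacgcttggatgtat

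Trim25 (ENSMUSG00000000275, chromosome 11, 88999376 to 89020293, plus strand), a ligase best known for activating the RNA sensor RIG-I, had 2 p65 peaks, both weak and both in WTLPS alone. They lay 1.71 kb upstream, in the promoter, and 25 kb downstream, each at 4.85-fold with 8 fragments (3.45 to 15.8). The downstream site coincided with STAT5 at 12.9-fold in WT and 9.61-fold in KO. H3K27ac at the Trim25 promoter was 13.2-fold in WT, 24.1-fold in WTLPS, 14.0-fold in KO and 16.1-fold in KOLPS. The pileup was 28 fragments in WT (18.6 to 40.5) and 52 in WTLPS (38.8 to 68.2), intervals that overlapped by less than 2 fragments.

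Map3k8 (ENSMUSG00000024235, chromosome 18, 4331327 to 4353015, minus strand), the TPL2 kinase that carries TLR signals to ERK, had 1 p65 peak in the 4 lists. It lay at the promoter, at −442 bases from the TSS, in KOLPS, at 11.0-fold with 19 fragments (11.4 to 29.7). In significance it equalled or exceeded 79.2% of the peaks of that list. No p65 peak was called there in WTLPS, where the smallest pileup of any called peak was 6. A kB motif lay 19 bases from the summit. The H3K27ac enrichment of this promoter was 17.9-fold in WT, 22.3-fold in WTLPS, 15.4-fold in KO and 13.3-fold in KOLPS.

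**Figure D3:**
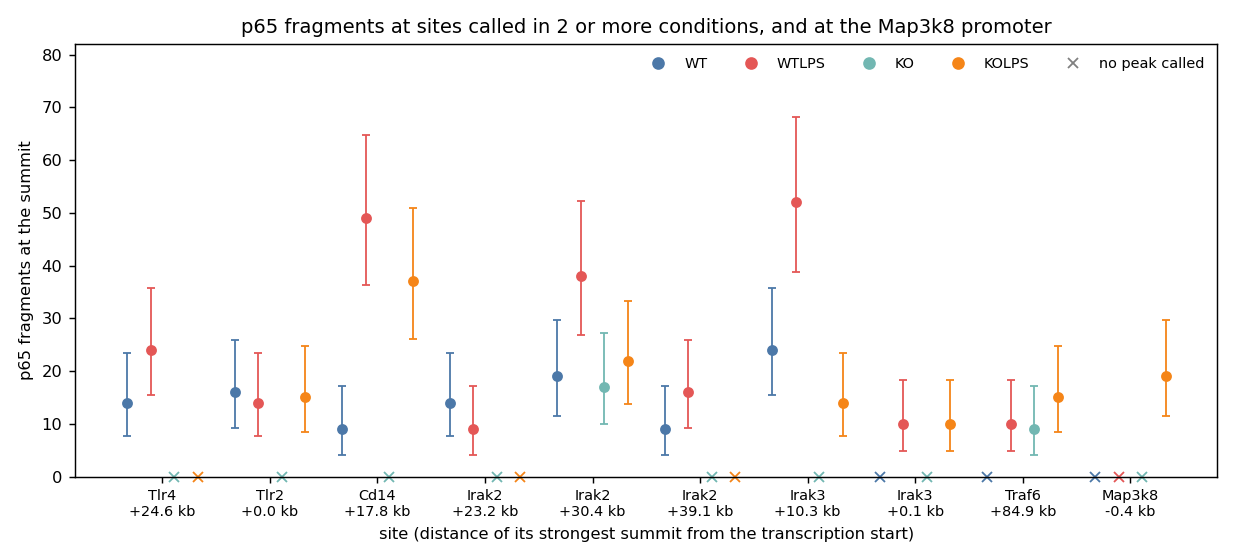
Fragments at the p65 summit (linear axis) for each site near the members called in 2 or more conditions and for the Map3k8 promoter; points are single libraries, bars are exact Poisson intervals for counting error, and crosses at 0 mark conditions with no called peak, not a count of 0. In WTLPS the site of Irak3 at 10.3 kb reaches 52 and that of Cd14 at 17.8 kb 49; in KOLPS they stand at 14 and 37.

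Over all 27 p65 sites near the members, 17 were called in WTLPS alone, 3 in WT and WTLPS, 3 in WT, WTLPS and KOLPS, and 1 in all 4 conditions. Of the remaining 3, Irak3 at the promoter was called in WTLPS and KOLPS, Traf6 at 84.9 kb in WTLPS, KO and KOLPS, and Map3k8 at the promoter in KOLPS. A KOLPS peak overlapped 6 of the 26 WTLPS peaks, or 23.1% (Wilson interval 11.0 to 42.1%), and 22.7% of the whole WTLPS list, the second share lying within the interval of the first. A WT peak overlapped 7 of the 26 (26.9%, 13.7 to 46.1%), against 13.3% of the list. The 6 kept peaks had a median fold of 14.6 (5.93 to 28.6) in WTLPS and the 20 that were not called in KOLPS a median of 7.01 (4.31 to 13.5). The kept 6 were the Tlr2 promoter, Cd14 at 17.8 kb, Irak2 at 30.4 kb, both Irak3 sites named above and Traf6 at 84.9 kb. All 26 WTLPS peaks overlapped an H3K27ac peak in WTLPS (100%, 87.1 to 100%), against 75.4% of the list. In KOLPS H3K27ac was still called at 23 of the 26 (88.5%, 71.0 to 96.0%), and SMC1 at 15 (57.7%, 38.9 to 74.5%), where the whole list had 66.3% and 65.2%.

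STAT5 was called at 3 promoters in WT (Tlr2, Myd88 and Traf6) and 2 in KO (Tlr4 and Traf6), against 3.96% and 3.29% of all protein-coding promoters. Tlr2 and Myd88 lost the call in KO, a pattern seen at 1.29% of all genes. Within 100 kb there were 33 STAT5 peaks in WT and 26 in KO, a ratio of 0.788 (0.453 to 1.36) against 0.780 over all protein-coding genes. A KO peak overlapped 24 of the 33 WT peaks (72.7%, 55.8 to 84.9%) and 64.8% of the WT list. The 9 WT peaks without a KO peak had folds of 4.295 to 7.30, below the median of 11.8 of the 24 that were kept. At the 24 sites called in both, fold enrichment was lower in KO at 18, with a median ratio of KO to WT of 0.752 (range 0.517 to 1.49), while 75.5% of all shared STAT5 peaks were lower in KO and their median ratio was 0.826. The KO library was the more deeply covered of the 2. Of the WT STAT5 peaks near the members, 8 of 33 coincided with p65 in WTLPS (24.2%, 12.8 to 41.0%) and 3 with p65 in KOLPS (9.09%, 3.14 to 23.6%), against 18.05% and 7.17% of the list. The downstream STAT5 site of Trim25, one of the 8, held no match to either motif.

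Trim25 downstream STAT5 site, chr11:89024284-89024384: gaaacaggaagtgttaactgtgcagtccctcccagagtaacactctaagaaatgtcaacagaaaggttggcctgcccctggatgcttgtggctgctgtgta

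In the whole lists a STAT5 motif lay within 50 bases of 37.9% of WT STAT5 summits and in 3.35% of windows of the same length 1 kb away. A kB motif lay at 11.2% of WTLPS p65 summits and 1.06% of windows 1 kb away. Near the members it lay at 2 of 26 WTLPS summits (Tlr2 and Irak2) and a STAT5 motif at 10 of 33 WT STAT5 summits. The 2 motif-bearing p65 sites were also called in KOLPS, and with Map3k8 they make up all the member p65 sites with a kB motif at a summit; these sites were picked out after their values were seen.

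CTCF, which anchors chromatin loops, was called at 7 of the 10 promoters in WT and 6 in WTLPS, and 4 in KO and 3 in KOLPS. The shares of all protein-coding promoters were 29.5%, 27.2%, 19.1% and 10.1%. The strongest sites lay at −91 bases from the TSS of Irak2, −655 bases from that of Irak3 and −1850 bases from that of Trim25. At Irak2 CTCF was 26.6-fold in WT, 17.6-fold in WTLPS, 10.9-fold in KO and 5.50-fold in KOLPS, and the corresponding pileups were 125 (104 to 149), 79 (62.5 to 98.5), 42 (30.3 to 56.8) and 20 fragments (12.2 to 30.9), none of whose intervals overlapped except those of KO and KOLPS, by less than 1 fragment. Irak3 gave 27.9, 19.2, 12.7 and 8.11-fold, and Trim25 22.6, 15.7, 7.09 and 4.45-fold. These 3 were the members whose promoter peak was called in all 4 conditions. At the Traf6 promoter CTCF was 11.4-fold in WT, 11.5-fold in WTLPS and 4.56-fold in KO and was not called in KOLPS. Tlr2, Ticam1 and Map3k8 had CTCF in WT and not in KO, as did 16.5% of all genes, and Traf6, Ticam1 and Map3k8 had it in WTLPS and not in KOLPS, as did 19.3%. Tlr4, Cd14 and Myd88 had no CTCF promoter peak in any condition.

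CTCF peaks within 100 kb of the members numbered 127 and 119 in WT and WTLPS and 45 and 24 in KO and KOLPS. Between KO and WT the ratio was 0.354 (0.246 to 0.501), against 0.341 over all protein-coding genes. By number, Tlr2 went from 11 peaks in WT to 1 in KO and 0 in KOLPS, Ticam1 from 18 to 2 and 1, and Myd88 from 15 to 2 and 1. Irak3 had 16 in WT, 13 in KO and 6 in KOLPS, but its KO peaks at −4.58, −6.18, −8.09, −9.68 and −12.3 kb had none in WT, and the covered length was 16.5 kb in WT and 7.27 kb in KO. Tlr4 had 2, 2, 4 and 2 peaks, covering 2.41 kb in WT and 0.658 kb in KOLPS. Only its site at −58.7 kb was called in WT and KO, the WT site at 96.2 kb had no KO peak, and the other 3 KO peaks had no WT peak.

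SMC1 was called at 9 of 10 promoters in each condition, while the share of all promoters was 30.4% in WT and 27.1% in WTLPS, and 21.6% in KO and 13.9% in KOLPS. Myd88 had SMC1 in WT and not in KO, as did 13.7% of all genes, and Trim25 had it in WTLPS and not in KOLPS, as did 16.3%. Traf6 had SMC1 in KO and not in WT (4.85% of all genes) and in KOLPS and not in WTLPS (3.11%). The Traf6 SMC1 summit, 987 bases downstream of the TSS in KO, lay beside the STAT5 site at 935 bases. At Irak2 and Irak3, but not at every promoter with a strong CTCF peak, SMC1 was several fold lower in KO cells than in WT cells. At Irak2 SMC1 was 25.1-fold in WT, 19.2-fold in WTLPS, 5.21-fold in KO and 4.91-fold in KOLPS, with 160 fragments (136 to 187) in WT and 32 (21.9 to 45.2) in KO. At Irak3 it was 16.9, 14.2, 3.94 and 4.55-fold in the same order. The KO to WT ratios were 0.207 at Irak2 and 0.234 at Irak3, against a median of 0.846 over all genes with a peak in both. Map3k8, with a weaker CTCF peak of 8.65-fold in WT and none in KO, had SMC1 at 14.7, 11.2, 6.00 and 6.73-fold. Its ratio of KO to WT was 0.408. Trim25 had 6.09-fold in WT and 7.69-fold in WTLPS, where CTCF was lower in WTLPS than in WT, and its KO peak of 3.47-fold lay 19 bases downstream of the TSS and not at the CTCF site. Traf6, with CTCF in WT and WTLPS, had SMC1 in KO and KOLPS alone. At 3 promoters with no CTCF peak or a weak one the strongest SMC1 peak was at least as high in KO as in WT. Tlr4 had 7.34-fold in WT and 8.36-fold in KO, Tlr2 7.34-fold and 7.42-fold, and Ticam1 4.84-fold and 6.63-fold, with overlapping pileup intervals in each pair. The Tlr4 summit lay at −53 bases from the TSS in WT and 1313 bases downstream in KO, so that its 2 values belong to different peaks. Cd14 had 6.87-fold and 5.84-fold, and Myd88, also without CTCF, had no SMC1 peak in KO.

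**Figure D4:**
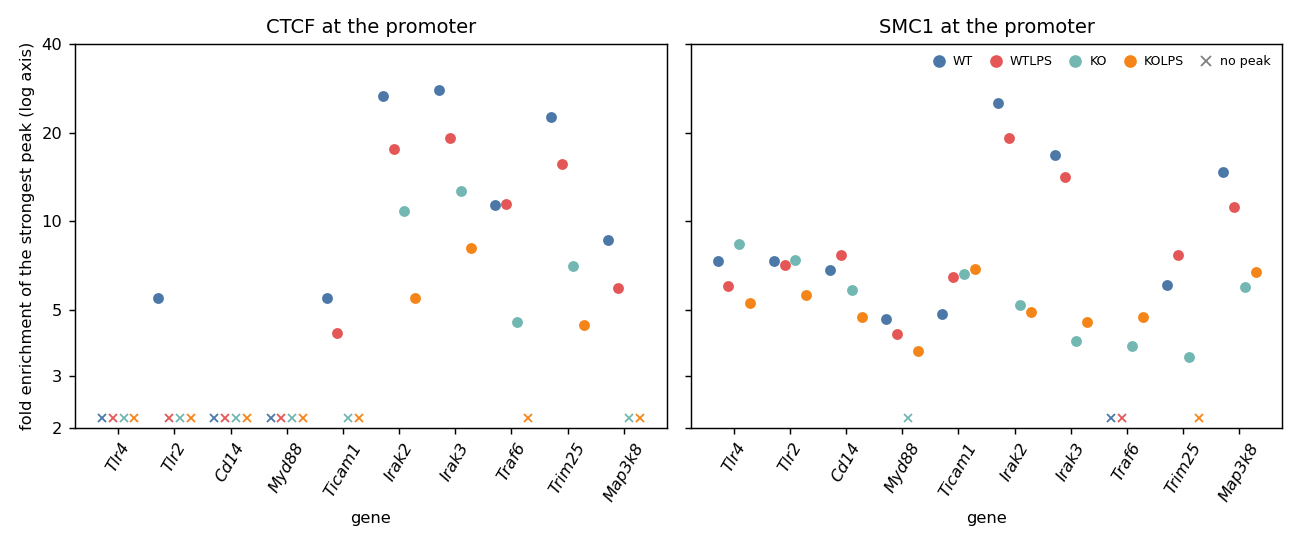
Fold enrichment of the strongest CTCF peak (left) and SMC1 peak (right) at each promoter, on a log axis; points are single libraries coloured by condition, and crosses at the bottom mark promoters with no peak. SMC1 at Irak2 and Irak3 falls from 25.1-fold and 16.9-fold in WT to 5.21-fold and 3.94-fold in KO. At Tlr4, Tlr2 and Ticam1 the strongest SMC1 peak is at least as high in KO as in WT, at Tlr4 with summits at different places.

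In the 100 kb windows SMC1 peaks numbered 180 and 151 in WT and WTLPS and 103 and 55 in KO and KOLPS. The ratio between KO and WT of 0.572 (0.445 to 0.733) lay above the 0.460 of all protein-coding genes, a value inside the interval. A KO peak overlapped 80 of the 180 WT SMC1 peaks near the members (44.4%, 37.4 to 51.7%), against 34.5% of the list, which lies below that interval. Among the WT SMC1 peaks near the members with a CTCF peak 21 of 89 were kept in KO (23.6%, 16.0 to 33.4%), and 59 of 91 without one (64.8%, 54.6 to 73.9%). The same split was present in the whole WT list, with 16.3% kept among peaks with CTCF and 55.7% among those without. H3K27ac was called at 104 of the 180 member peaks and at 22793 of the 63638 of the list. With H3K27ac 69 of 104 were kept (66.3%, 56.8 to 74.7%), against 64.6% of the list. Without it 11 of 76 were kept (14.5%, 8.28 to 24.1%), against 17.7%. Both list shares lay within the members' intervals.

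H3K27ac at the member promoters was higher with LPS more often in WT than the promoters of all genes were. The highest fold of an H3K27ac promoter peak was greater in WTLPS than in WT at 8 of the 10 genes, with a median ratio of 1.42, whereas 40.5% of all genes with a peak in both were greater and their median ratio was 0.937. Cd14 (2.06), Trim25 (1.83), Myd88 (1.63), Traf6 (1.51) and Irak2 (1.48) had the highest ratios and exceeded the 90th percentile of all genes, 1.43. The WTLPS peak at Irak2 spans the promoter but has its summit 6.24 kb downstream, so its value is that of the intronic site. Ticam1 (0.890) and Tlr4 (0.766) were lower. In KO cells the fold was greater with LPS at 4 of the 10 (Cd14, Trim25, Irak2 and Myd88, the last with a ratio of 1.002), with a median ratio of 0.893, against 22.8% and 0.813 for all genes. Background coverage of the H3K27ac lists was 1.17 fragments per base in WT and 1.20 in WTLPS, and 0.748 in KO and 0.801 in KOLPS. No interval over libraries can be set on these ratios, since each condition has 1 library.

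**Figure D5:**
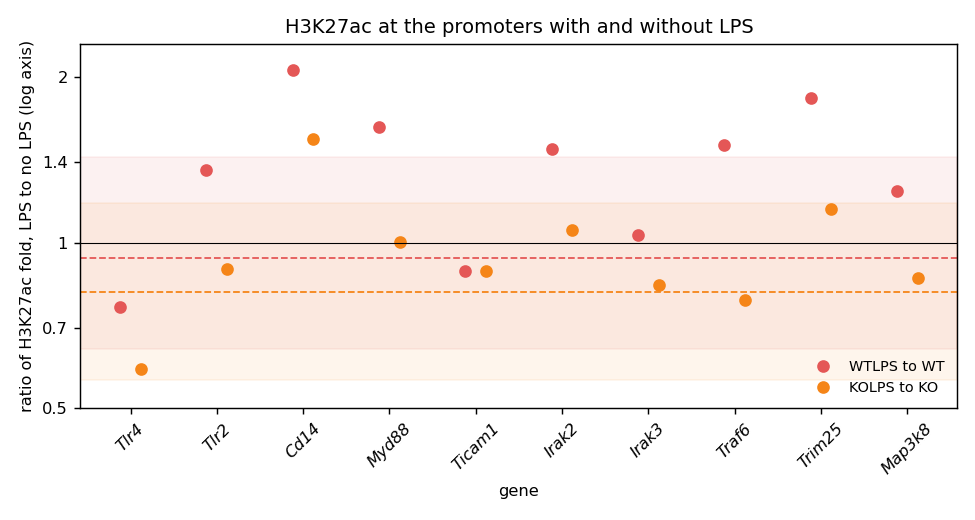
Ratio of the highest H3K27ac promoter fold with LPS to that without, on a log axis, in WT (red) and KO (orange); dashed lines are the median over all protein-coding genes with a peak in both conditions and shaded bands run from their 10th to 90th percentile. In WT 5 genes lie above the band, led by Cd14 at 2.06, and in KO Cd14 (1.54) alone does. The KO and KOLPS values of Cd14 are not those of the peak at its p65 promoter site.

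Counted as peaks within 100 kb, H3K27ac numbered 304 in WT and 268 in WTLPS, and 307 in KO and 331 in KOLPS. The ratio of KOLPS to WTLPS was 1.24 (1.05 to 1.46), against 1.14 over all protein-coding genes, and that of KO to WT 1.01 (0.859 to 1.19). The covered length was smaller in KO cells, with 248.5 kb in WT, 254.8 kb in WTLPS, 200.7 kb in KO and 177.9 kb in KOLPS. Over the whole lists the median H3K27ac peak was 369 bases wide in WT and 271 in KO. Irak2 had the most, with 51, 43, 64 and 69 peaks.

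When the 30 lists were compared, Ticam1 and Map3k8 were the most alike of the members, with both or neither having a promoter peak in 29 lists. Traf6 differed most from the others, with at most 22 lists in common. A promoter peak was present in 17 to 22 of the 30 lists per member (median 19.5), against a median of 14 over active genes.

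Of 47 other genes of the pathway and its NF-κB branch, p65 was called at 8 promoters in WT and 15 in WTLPS, and 7 in KO and 9 in KOLPS. The shares of all protein-coding genes were 0.474%, 2.86%, 0.342% and 1.86% in the same order. The 9 KOLPS promoters were all among the 15. In WTLPS and not in KOLPS 6 were called, against 1.97% of all genes, and none had the pattern of Map3k8. The 8 most significant in WTLPS were led by Tnfaip3, which encodes the deubiquitinase A20, at 28.0-fold in WTLPS and 22.6-fold in KOLPS. Tnip3, whose product binds A20, was at 24.8-fold and 9.36-fold, and Nfkbia, which encodes the inhibitor IκBα, at 15.6-fold and 22.6-fold. The kinase gene Tbk1 was at 19.4-fold and 12.1-fold, Birc3, an anti-apoptotic ubiquitin ligase, at 18.9-fold and 12.1-fold, and the NF-κB family genes Nfkb2 and Rel at 17.8-fold and 12.1-fold and at 13.5-fold and 15.4-fold. Nfkbiz, which encodes a nuclear co-regulator, was at 17.2-fold and 12.1-fold. Each of these 8 was called in both LPS conditions. Within 100 kb a p65 peak was found for 35 of the 47 in WTLPS and 24 in KOLPS, against 33.1% and 17.9% of all genes. A STAT5 peak was found for 31 in WT and 27 in KO, against 46.7% and 41.4%. H3K4me3 was called at the start used for 41 of the 47 in WT, so p65 at another start of the rest may have been missed.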

How the data were processed

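Each of 34 samples is 1 antibody or input in 1 condition; the 30 antibody samples have 1 peak list each and the 4 inputs have none. Per the labels, fixed chromatin was tagmented in the ChIP-seq libraries and sequenced in pairs. The submitters' processing notes name BWA 0.7.12, Picard 1.77, MACS2 2.1.2 and deepTools 3.1.3 and the build mm10; the study's methods name other versions. The authors deposited MACS2 lists, of which the p65 lists are named as filtered against problem regions. Each peak has a fold (pileup plus 1, divided by local background plus 1), a −log10 p-value and a −log10 q-value. For H3K4me1 and H3K27me3 these are averages over broad regions. The H3K4me1 peak names carry another supplier's mark than the label. Thresholds differ between antibodies, so that values were compared only within 1 antibody. Because 1 is added to both terms, a fold also depends on the background, which differed between the lists of an antibody.

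TSSs were those of the longest spliced transcript in GENCODE vM21 (GRCm38, equal to mm10 on the assembled chromosomes). A peak was counted when it overlapped a promoter (2.5 kb either side) or window (100 kb either side) by at least 1 bp. Pileup and background were recovered as the whole number of fragments and the rate that return the deposited fold and p-value under a Poisson model (tolerance 0.002 in −log10 p); at least 99.95% of narrow peaks with −log10 p under 25 were recovered, as checked on simulated data. Shares have Wilson intervals, ratios exact binomial and pileups exact Poisson intervals, at 95%. Pileups are raw fragment numbers and were not scaled to a common coverage. Motifs were read on both strands from GRCm38.p6; the short motif sites printed were picked after their values were seen. Where a fold is given for a promoter, it is that of the most significant peak; LPS ratios use the highest fold. With n = 1 per condition no test was run. Members and gene lists were chosen with earlier results of these data known. The members were described in full; of the 47 pathway genes the 8 with the most significant WTLPS p65 promoter peak are named. Python 3.11.15, pandas 2.3.3, scipy 1.17.1, statsmodels 0.14.6, pysam 0.24.0 and samtools 1.23.1 were used. Some marker genes are not reported here.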

Additional observations from a re-analysis of the deposited data

Results flagged for a closer look

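H3K27ac values of 5 kinds moved in opposite directions with LPS in WT and KO cells. Each rests on 1 library per condition, and the difference between genotypes was not tested. The number of H3K27ac peaks within 100 kb of the members had a ratio of 0.882 from WT to WTLPS and of 1.08 from KO to KOLPS. The H3K27ac promoter fold had ratios of 1.36 in WT and 0.896 in KO at Tlr2, 1.03 and 0.839 at Irak3, 1.51 and 0.786 at Traf6, and 1.24 and 0.863 at Map3k8. Over all protein-coding genes the median ratio was 0.937 in WT and 0.813 in KO, so that a ratio under 1 in KO was the common case.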

How the results depend on the processing

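With 1 list per condition no replicate could be left out, and no paired analysis was possible because the labels give no replicate numbers. Of 110 alternative counts of members with a promoter peak, 98 stayed within 1.5 times the value reported. The H3K27ac and H3K4me3 counts stood at or next to 10 of 10 and could hardly move. Those that moved were of p65, STAT5, CTCF and SMC1, most of them of p65 or STAT5. In turn 38 of 44 ratios, 17 of 20 overlap shares and 2 of 2 motif shares stayed within the interval of theirs. The p65 promoter count in WTLPS fell from 5 to 3 with promoters of 1 kb on either side, to 2 among peaks above the list's median strength and to 1 at −log10 q of at least 10. The KOLPS count, 3 as reported, was 3, 2 and 2 under the same alternatives, so that WTLPS no longer exceeded KOLPS. With the starts of all transcripts it was 2 in WT and 1 in KO. That median and the −log10 q threshold each left 1 STAT5 promoter in WT, 1 in KO and 1 CTCF promoter in KOLPS, and the threshold left 4 SMC1 promoters in KOLPS. The same threshold gave KO to WT ratios of 0.211 for CTCF, 0.396 for SMC1 and 1.31 for H3K27ac, a KOLPS to WTLPS ratio of 0.196 for SMC1, and 100% of WT STAT5 peaks overlapped in KO. The H3K27ac KO to WT ratio, 1.01 as reported, was 0.992 in windows of 200 kb and 1.24 after thinning to equal coverage. Requiring 50% of the WT peak to be covered lowered the overlap to 4.72% for CTCF and 36.1% for SMC1. The cause was not tested. The p65 KOLPS to WTLPS ratio was between 0.229 and 0.5, the latter at the −log10 q threshold, where its interval (0.134 to 1.61) included 1, as did that of the WTLPS to WT ratio of 3.33 (0.858 to 18.8). The H3K27ac KOLPS to WTLPS ratio was 1.44 after thinning and 1.27 (0.881 to 1.83) at the threshold. Counting H3K27ac summits inside the promoter, an alternative added after the values were seen, gave 7 members higher with LPS in WT and 4 in KO. Pileups of about 10 fragments limit single p65 sites.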
